A study of Mus musculus with 4 samples.

Results

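The genes described here encode the constitutive proteasome and its activators: every gene in the feature tables whose symbol is Psma, Psmb, Psmc, Psmd or Psme followed by digits only, without Psmb8, Psmb9 and Psmb10. The rule found 40 of 55414 genes and used no measured value. By role they are 8 alpha ring genes, 8 beta ring genes, 6 base ATPases, 11 other subunits of the 19S particle, 3 base assembly chaperones and 4 activators. RNA of single liver cells was counted in mice of genotype A/A or S/S, aged 2 months, which were untreated (baseline) or had been injected intraperitoneally with 500 ng of TNF, an inflammatory cytokine, 3 h earlier. What the letters A and S stand for is not spelled out in the labels. Lists of 4 values run through the baseline libraries (A/A, then S/S) and then the TNF libraries (A/A, then S/S). Each group is 1 library made from the pooled cells of 2 mice, enriched for non-parenchymal cells and sorted for macrophages and live cells, so cell shares are set partly by the sort.

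The proteasome is the barrel-shaped protease that degrades proteins tagged with ubiquitin. Its 20S core stacks outer alpha rings, which gate the channel, on inner beta rings, which hold the catalytic sites, and the 19S particle recognises, unfolds and feeds in the substrates. In cells exposed to inflammatory cytokines the catalytic subunits Psmb5, Psmb6 and Psmb7 can be replaced by Psmb8, Psmb9 and Psmb10, which gives the immunoproteasome used in making peptides for antigen presentation, and the activator of Psme1 and Psme2 can take the place of the 19S particle.

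Promoter sequences are shown for the catalytic subunits and activators that the results turn on. They are RefSeq sequences of build GRCm38.p6, read 5′ to 3′ on the strand of the gene and ending at the base before the annotated start, and 33 of the 40 genes had a window; the others are Psma8, Psmb1, Psmb2, Psmb7, Psmc3, Psmd3 and Psmd7. Capitals mark matches on either strand to TGACNNNGC, the core of the antioxidant response element, or to GGGA and TTCC with any 2 bases between, a form of the NF-kB site. The first lines are Psmb5 at chr14:54617996-54618095 (minus strand), with the catalytic subunit Psmb6 at chr11:70525257-70525356 (plus strand) and the activator Psme4 at chr11:30771675-30771774 (plus strand), whose last marked match runs past the start.
Psmb5: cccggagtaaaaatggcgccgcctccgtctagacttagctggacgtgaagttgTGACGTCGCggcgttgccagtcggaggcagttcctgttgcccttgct
Psmb6: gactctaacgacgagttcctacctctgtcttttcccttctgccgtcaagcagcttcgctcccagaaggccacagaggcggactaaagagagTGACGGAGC
Psme4: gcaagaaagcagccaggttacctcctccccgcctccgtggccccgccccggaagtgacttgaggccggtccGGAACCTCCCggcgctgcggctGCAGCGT
The Psme1 window at chr14:55578494-55578523 (plus strand) is given for its first 30 transcribed bases, where capitals mark a match to GAAA and GAAA with any 2 bases between, the interferon-stimulated response element core. The Psme2 window at chr14:55591102-55591201 (minus strand) holds none of the motifs searched.
Psme1: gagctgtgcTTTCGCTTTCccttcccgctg
Psme2: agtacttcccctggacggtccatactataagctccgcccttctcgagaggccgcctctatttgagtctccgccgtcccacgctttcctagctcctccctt
In windows of 300 bases, TGACNNNGC was present in 6 of 33 members (18.2%) and in 12.4% of all 32851 windows. The interferon-stimulated core was in 4 members (12.1%) against 3.44%. Members were counted by gene, with a match in any window of the gene, and the background by window, so these shares are not like measures. The NF-kB form was found in 1 member promoter, that of Psme4, against 1.47% of all, and CCAAT in 13 (39.4%) against 37.4%. These matches describe letters in the window and say nothing of binding.

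The libraries held 3230, 4983, 6531 and 5848 barcodes, of which 2830, 4366, 6452 and 5528 passed the filters, with a median of 4724 to 6505 UMIs (unique transcript molecules) each. The members gave 61243, 120653, 228694 and 233734 UMIs in the barcodes kept. Levels are in CPM, the UMIs of a gene scaled to the same total of UMIs in each class and library. The libraries were made with a 3′ method, and whether UMIs from introns were counted is not given in the sources used. Brackets hold 95% intervals, and these speak to counting error alone. They are exact binomial, except for the difference between TNF ratios, where the interval is approximate. With 1 library per group nothing was tested between groups, and no comparison has a replicate check. The matrices of both TNF libraries were written by Cell Ranger 6.1.2 and those of both baseline libraries by 7.1.0, so TNF and software version cannot be told apart. The ribosomal RNA transcript Rn18s-rs5 took 17.0, 5.98, 14.3 and 13.7% of UMIs, and pairs of libraries shared 4 to 12 barcode sequences. Barcodes were placed in 12 classes by marker genes; 250, 404, 981 and 956 were mixed and 318, 769, 895 and 799 had too few markers.

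All 40 members had UMIs in 3 of the libraries and 39 in S/S baseline, but the tissue-restricted ones were scarce. Psmb11, the thymus form of the chymotrypsin-like subunit, had 3, 0, 1 and 2 UMIs over all kept barcodes, and Psma8, the testis form of an alpha subunit, was at 0.852 to 1.12 CPM there. A member entered a comparison with at least 20 UMIs in the pair of libraries, which left 38 in Kupffer-gate and in T cell-gate barcodes. Over all kept barcodes the most abundant were Psme1 at 275, 344, 404 and 333 CPM, Psma7 at 181, 265, 270 and 294 CPM, and Psme2 at 159, 199, 373 and 314 CPM. Reads of near-identical copies are uncertain: Psme2b, a copy of Psme2, had 560, 428, 1026 and 777 UMIs, while Psma5-ps, Psmb5-ps, Psmb6-ps and Psmb6-ps2 had between 0 and 5 UMIs per library.

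In 3 of the 4 libraries neutrophil-gate barcodes had the lowest summed member CPM of the classes and hepatocyte-gate barcodes the highest. Neutrophil-gate barcodes had 1030, 1256, 1563 and 1516 summed member CPM, the lowest or next to lowest of the 12 classes in each library. Hepatocyte-gate barcodes had 3245, 5603, 6359 and 6244 CPM and were the highest in 3 of the libraries. They were shallow, with medians of 1577, 1193, 1934 and 1304 UMIs, against 4724 to 6505 over all kept barcodes. Monocyte-gate barcodes were at 3521, 4743, 5913 and 5715 CPM, and T cell-gate barcodes at 3071, 4505, 4658 and 5042 CPM. B cell-gate barcodes were lower than T cells in every library, at 2242, 3187, 3494 and 3339 CPM. In 11 of the 12 classes the A/A baseline library was the lowest of the 4. The exception was the plasma cell gate, with 10 barcodes there, 1 of which held 42.1% of the member UMIs. The erythroid gate, counted among the 11, was also small there, with 11 barcodes and 99 member UMIs, 41.4% of them in 1 barcode.

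**Figure D1:**
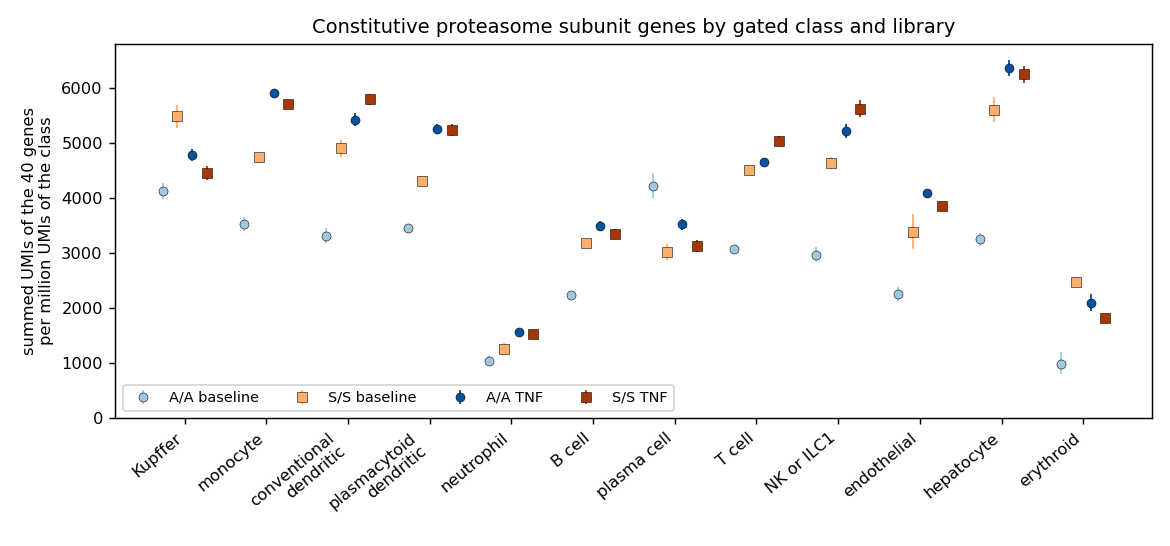
Summed CPM of the 40 genes (y axis) in 12 gated classes (x axis), with points for the 4 libraries and bars for exact binomial 95% intervals. Neutrophils lie between 1030 and 1563 in every library, and the A/A baseline point is the lowest in 11 classes. These include the erythroid gate, where that point rests on 99 member UMIs.

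In Kupffer cells, the macrophages that live in the sinusoids of the liver, the summed level was 4129 [3987 to 4275], 5483 [5279 to 5693], 4776 [4662 to 4893] and 4449 [4321 to 4579] CPM. The S/S baseline library was the highest and the A/A baseline library the lowest, with both TNF libraries between them. The gate held 297, 246, 374 and 200 barcodes, and all 8 Kupffer markers had UMIs in each library. Neutrophil markers summed to 110, 273, 921 and 675 CPM there and hepatocyte markers to 300, 334, 827 and 671 CPM, against 8489, 7834, 7391 and 5030 CPM for Kupffer markers. The nuclear RNA Malat1 was at 214, 1271, 3753 and 7231 CPM, and Rn18s-rs5 took 23.3, 10.2, 17.7 and 17.4% of UMIs in the gate. The part of other cell types and of RNA quality in the Kupffer values was not tested.

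TNF was set against baseline first in A/A. In Kupffer-gate barcodes the summed log2 ratio was 0.21 [0.15 to 0.27], and 26 of 38 members were higher in the TNF library, against a background of 57% of 7079 genes. The medians of the 19S roles lay above those of the 20S rings, while single members overlapped. The alpha ring had 1379 CPM at baseline and 1376 CPM after TNF, with a median log2 ratio of -0.10 over 7 members, and the beta ring a median of 0.05 over 7. The base ATPases, which unfold substrates, had a median of 0.43 with 5 of 6 higher, and the other 19S subunits a median of 0.42 with 10 of 11 higher. Single ratios ran from -0.37 to 0.60 in the rings and from -0.47 to 1.02 in these 19S roles. The difference between roles was not tested. The median of all genes compared was 0.17, and centring on it takes the summed value to 0.036.

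Single Kupffer members ranged from Psmd13, at 49.6 CPM in the A/A baseline and 35.6 CPM in the A/A TNF library, to the base chaperone Psmd10 at 18.3 and 59.6 CPM. Among members with at least 100 UMIs in the pair, the highest ratios were those of Psme2 at 1.04 [0.80 to 1.29], the lid subunit Psmd12 at 1.02 [0.43 to 1.65] and the base scaffold Psmd1 at 0.79 [0.32 to 1.28]. The lowest were the ATPase Psmc3 at -0.43 and the alpha subunits Psma6 at -0.37 and Psma1 at -0.28. The lowest 3 thus held 2 alpha ring genes and the highest 3 none from either ring.

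In S/S the summed Kupffer ratio had the other sign, -0.30 [-0.37 to -0.23], and 12 of 38 members were higher after TNF against 57.3% of 5969 genes. It was -0.20 [-0.29 to -0.12] under the first gate rule tried and -0.17 without Rn18s-rs5 and mitochondrial genes in the total. With only genes of under 20 kb of intron in the total it was -0.082. That limit applied to the total alone, and all members stayed in the sum. All 7 compared alpha ring members were lower after TNF, with a median of -0.58, and 6 of 7 beta ring members, with a median of -0.59. The ATPases had a median of -0.13 and the other 19S subunits one of 0.11 and, as in A/A, both medians lay above those of the rings. Psmb5, the chymotrypsin-like subunit, was at 96.6, 202, 116 and 110 CPM, and its S/S ratio of -0.87 [-1.27 to -0.47] was the lowest of the members with at least 100 UMIs, ahead of Psma1 at -0.82 and Psme1 at -0.80. The S/S baseline library alone was high for it. Psmd1 was the highest at 1.36 [0.71 to 2.07], from 44.5 to 116 CPM, followed by the trypsin-like subunit Psmb7 at 0.80 [0.12 to 1.53] and Psme2 at 0.49 [0.18 to 0.80].

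The TNF ratio of the summed members in S/S was lower than that in A/A by 0.51 on the log2 scale in Kupffer-gate barcodes (S/S minus A/A, -0.51 [-0.60 to -0.42]). Over 38 members the median difference was -0.49. The median TNF ratio of all genes compared was 0.17 in A/A and 0.21 in S/S. The direction of the summed difference was kept in each alternative tried. Its value nearest to 0 was -0.16, for the total of genes with under 20 kb of intron. By construction the difference is also the S/S to A/A ratio after TNF (-0.10) minus that at baseline (0.41), both given below. It was negative in other gates too, at -0.44 in T cell, -0.48 in monocyte, -0.57 in B cell and -0.81 in hepatocyte-gate barcodes. Over all kept barcodes the difference was -0.43, and the plasma cell gate alone had the opposite sign, at 0.31. The difference between genotypes was not tested.

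**Figure D2:**
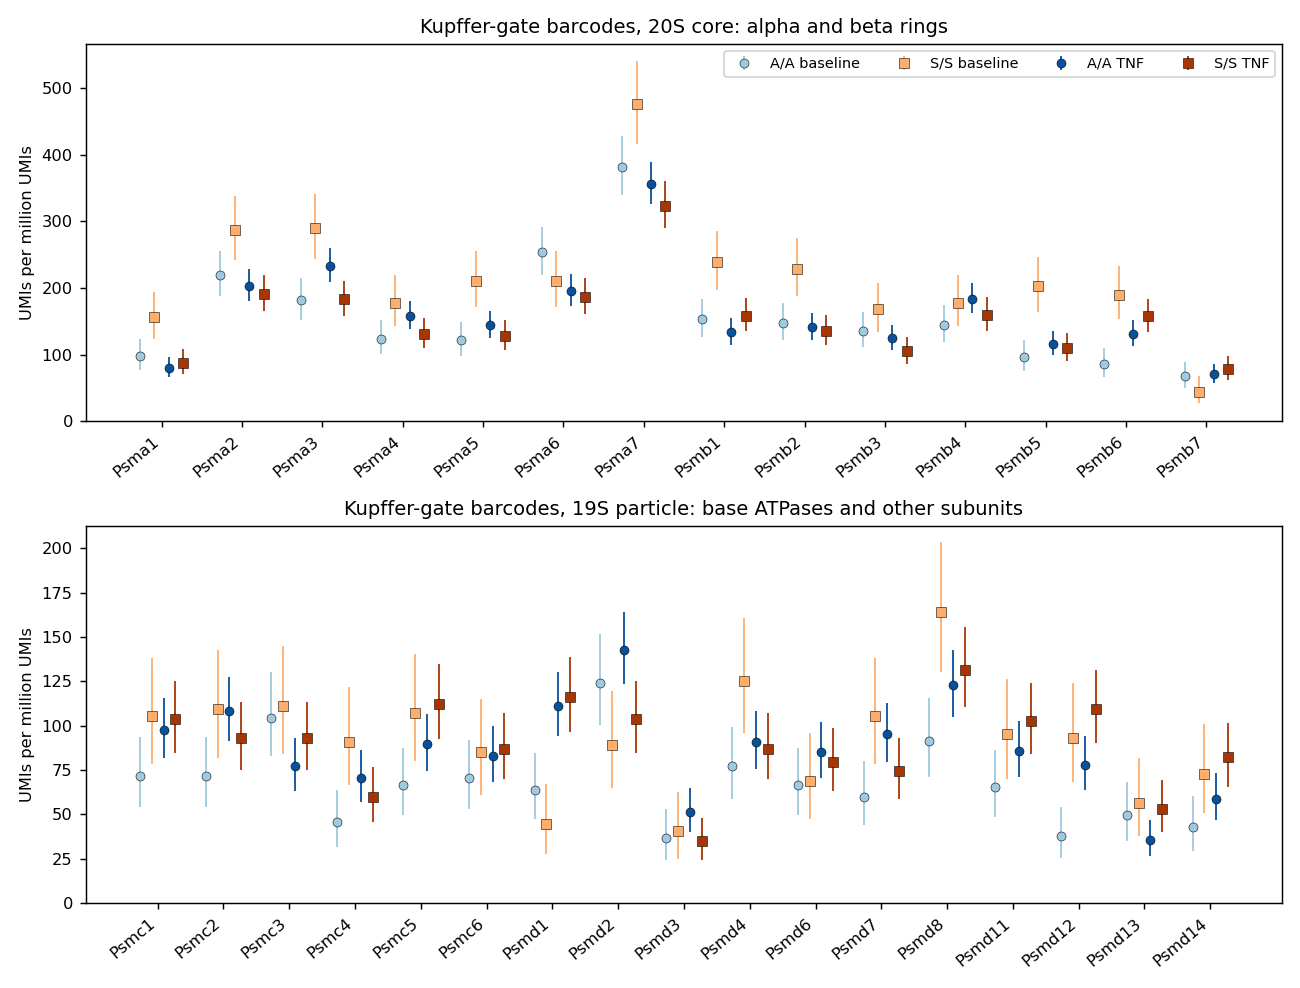
CPM (y axis) of the 20S core genes (upper panel) and the 19S genes (lower panel) in Kupffer-gate barcodes of the 4 libraries, with exact binomial 95% intervals. Psmb5 lies at 202 in S/S baseline and between 96.6 and 116 in the other 3 libraries, while Psmd1 is at 111 and 116 in the TNF libraries and 64.0 and 44.5 at baseline.

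**Figure D3:**
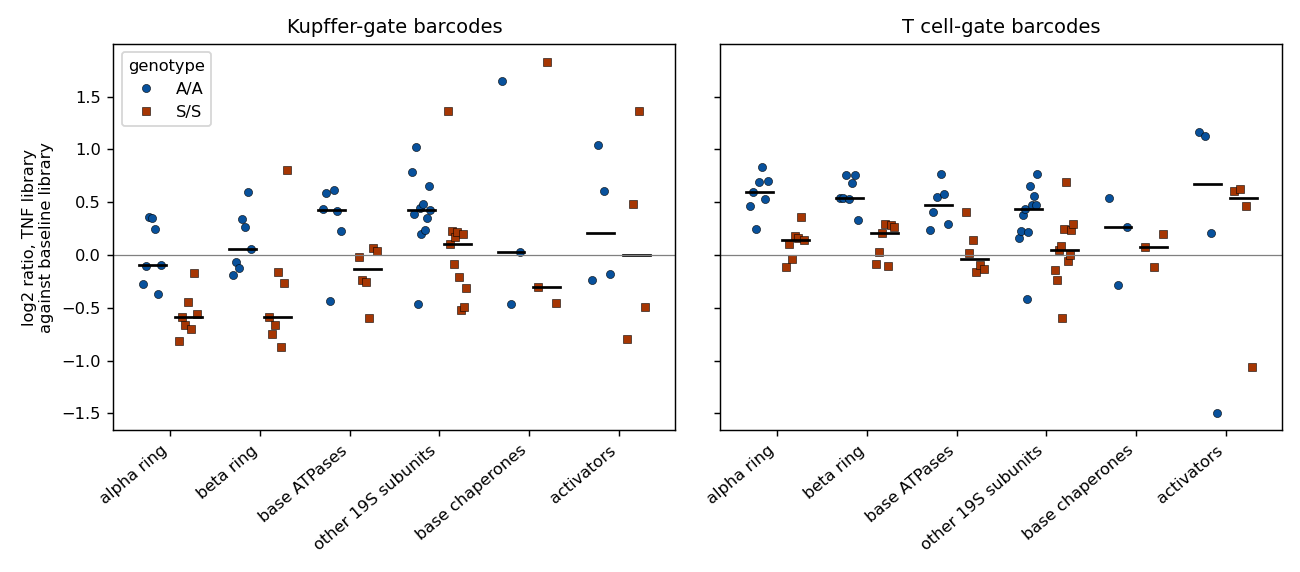
Log2 ratio of the TNF to the baseline library (y axis) for each compared member by role (x axis) in Kupffer-gate (left) and T cell-gate barcodes (right), for A/A and S/S, with black lines at the medians. In Kupffer-gate barcodes of S/S the alpha and beta ring medians are -0.58 and -0.59 and that of the other 19S subunits is 0.11.

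Gene lists of other housekeeping complexes, added after the data were seen, are given beside the members. In Kupffer-gate barcodes the median TNF log2 ratio of ribosomal protein genes was -0.56 (A/A) and -0.90 (S/S), and that of oxidative phosphorylation genes -0.55 and -0.76. The member medians were 0.30 and -0.26, of the opposite sign to both lists in A/A and of the same sign in S/S. The part of a general change in the totals was not tested.

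In T cells the medians of the rings and of the 19S particle lay closer together. In A/A the summed T cell log2 ratio of TNF to baseline was 0.60 [0.57 to 0.63], and 35 of 38 members were higher, against 48.2% of 12078 genes. The medians were 0.60 for the alpha ring, 0.54 for the beta ring, 0.48 for the ATPases and 0.44 for the other 19S subunits. In S/S the summed ratio was 0.16 [0.13 to 0.19], with 25 of 38 members higher against 35.9% of 11608 genes. With only genes of under 20 kb of intron in the total these values were 0.13 and 0.069. The S/S value was also 0.0045 [-0.096 to 0.10] with barcodes thinned to 1000 UMIs, 0.063 without Psme1 and Psme2, and 0.40 when centred on the median of all genes. Ribosomal protein genes had T cell medians of 0.67 (A/A) and 0.18 (S/S). NK or ILC1 markers in the T cell gate summed to 725, 2133, 805 and 1896 CPM. T cell markers there summed to 4259, 6209, 4774 and 5142 CPM. The gate had medians of 12483.5, 7671.5, 10786 and 8868.5 UMIs per barcode. The part of the cell make-up of the gate and of depth in the T cell values was not tested.

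Over the classes with at least 500 member UMIs in both libraries, the summed level was higher after TNF in 10 of 11 in A/A, all but the plasma cell gate, and in 11 of 11 without the barcode with the most member UMIs in each library and class. In S/S it was higher in 9 of 11, the others being the Kupffer and erythroid gates, and in 6 of 11 under the first gate rule tried. The largest A/A ratio among these classes was that of hepatocyte-gate barcodes, 0.97 [0.91 to 1.03], where 36 of 38 members were higher against 69.9% of 6010 genes. Their S/S ratio was 0.16 [0.09 to 0.22], with 25 of 38 members higher against 60.6% of 5748 genes. Centred on the median of all genes the hepatocyte values were 0.57 for A/A and -0.077 [-0.14 to -0.0093] for S/S, so the S/S direction turned, and with barcodes thinned to 1000 UMIs the S/S value was 0.021 [-0.094 to 0.14]. The A/A value was 0.55 with only genes of under 20 kb of intron in the total. Neutrophil markers in the hepatocyte gate summed to 1907, 2648, 3865 and 3815 CPM, against 47474, 40480, 42284 and 28663 CPM for hepatocyte markers, and Malat1 was at 623, 2910, 1472 and 3790 CPM. Their part in the hepatocyte values was not tested. Monocyte-gate barcodes had 0.75 in A/A and 0.27 in S/S. Centring took the S/S value to 0.53, thinning took it to 0.17, and the total of genes with under 20 kb of intron took the A/A value to 0.47.

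The S/S and A/A libraries were next compared at baseline. The summed Kupffer ratio of S/S to A/A was 0.41 [0.33 to 0.48], and 31 of 38 members were higher in S/S, against 47.6% of 5194 genes. Psmb6, the caspase-like subunit, was at 86.2, 190, 131 and 158 CPM, a ratio of 1.13 [0.67 to 1.60], and was the highest with at least 100 UMIs, followed by Psmb5 at 1.06 [0.61 to 1.51] and the lid subunit Psmd8 at 0.84 [0.36 to 1.31]. At the lower end were the base scaffold Psmd2 at -0.47 [-1.02 to 0.05] and Psma6 at -0.27 [-0.62 to 0.08], whose intervals include 0. In T cells the summed ratio was 0.55 [0.52 to 0.58], with 34 of 38 members higher against 59.4% of 12154 genes. NK or ILC1 markers in the T cell gate were at 725 CPM in A/A baseline and 2133 CPM in S/S baseline. The part of this difference in the T cell ratio was not tested. Across classes S/S was higher in 9 of 10, all but the plasma cell gate. When the total held only genes of under 20 kb of intron, the Kupffer value was 0.0087 [-0.066 to 0.083] and the T cell value 0.14 [0.11 to 0.16]. Without Rn18s-rs5 and mitochondrial genes in the total they were 0.20 and 0.37. Ribosomal protein genes were also higher in S/S, with medians of 0.71 in Kupffer-gate and 0.49 in T cell-gate barcodes.

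After TNF the genotypes lay closer together. The Kupffer ratio of S/S to A/A was -0.10 [-0.16 to -0.05], with 16 of 38 members higher in S/S against 44.5% of 7209 genes. That sign depends on the processing: it was 0.011 [-0.061 to 0.083] under the first gate rule tried and 0.093 [-0.027 to 0.21] with barcodes thinned to 1000 UMIs. The members at the ends were Psmd10 at -0.72 [-1.31 to -0.16], Psmd3 at -0.55, Psmd2 at -0.46, Psmd13 at 0.57, Psmd12 at 0.49 and the deubiquitinating lid subunit Psmd14 at 0.47. In T cells the ratio was 0.11 [0.08 to 0.14], with 28 of 38 members higher against 48.5% of 11374 genes. S/S was higher in 3 of 12 classes, the conventional dendritic, T cell and NK or ILC1 gates. That count was 8 of 12 when centred on the median of all genes and 5 of 12 under the first gate rule tried.

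The activators, which cap the core in place of the 19S particle, differed from one another. Psme1 and Psme2 form the activator linked to antigen presentation. In T cell-gate barcodes Psme1 was at 293, 407, 657 and 621 CPM and Psme2 at 205, 278, 450 and 431 CPM, so both TNF libraries lay above both baseline libraries. The T cell ratios were 1.16 [1.08 to 1.24] and 1.13 (A/A) against 0.61 and 0.63 (S/S). In Kupffer-gate barcodes they parted: Psme1 was at 377, 465, 321 and 267 CPM, lower after TNF, and Psme2 at 225, 241, 464 and 338 CPM, higher after TNF. Psme2 was higher after TNF in 11 of 11 compared classes in A/A and in 12 of 12 in S/S. Its steepest case was the neutrophil gate, at 45.4, 44.1, 358 and 291 CPM from 26, 24, 2601 and 1600 UMIs, a ratio of 2.95 [2.41 to 3.55] for A/A and 2.70 [2.13 to 3.33] for S/S. Neutrophil markers in that gate also differed between the libraries, at 44070, 110007, 168782 and 170817 CPM, and their part in the Psme2 values was not tested. In hepatocyte-gate barcodes Psme2 was at 50.02, 186, 288 and 310 CPM, and the part of neutrophil RNA in these values was not tested.

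Psme4, the large single-chain activator, ran the other way. In T cells it was at 86.7, 58.3, 30.2 and 27.5 CPM, with ratios of -1.49 [-1.71 to -1.27] for A/A and -1.06 [-1.45 to -0.68] for S/S. It was lower after TNF in 11 of 11 classes in A/A and 12 of 12 in S/S. Psme4 also has the longest annotated intron length of the members, 100254 bases, and across 38 members the T cell TNF ratio went with log10 intron length at r = -0.61 (A/A) and -0.54 (S/S), a description over genes that share libraries. In Kupffer-gate barcodes r was -0.21 and 0.16. Whether introns were counted differently in the 2 software versions was not tested.

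**Figure D4:**
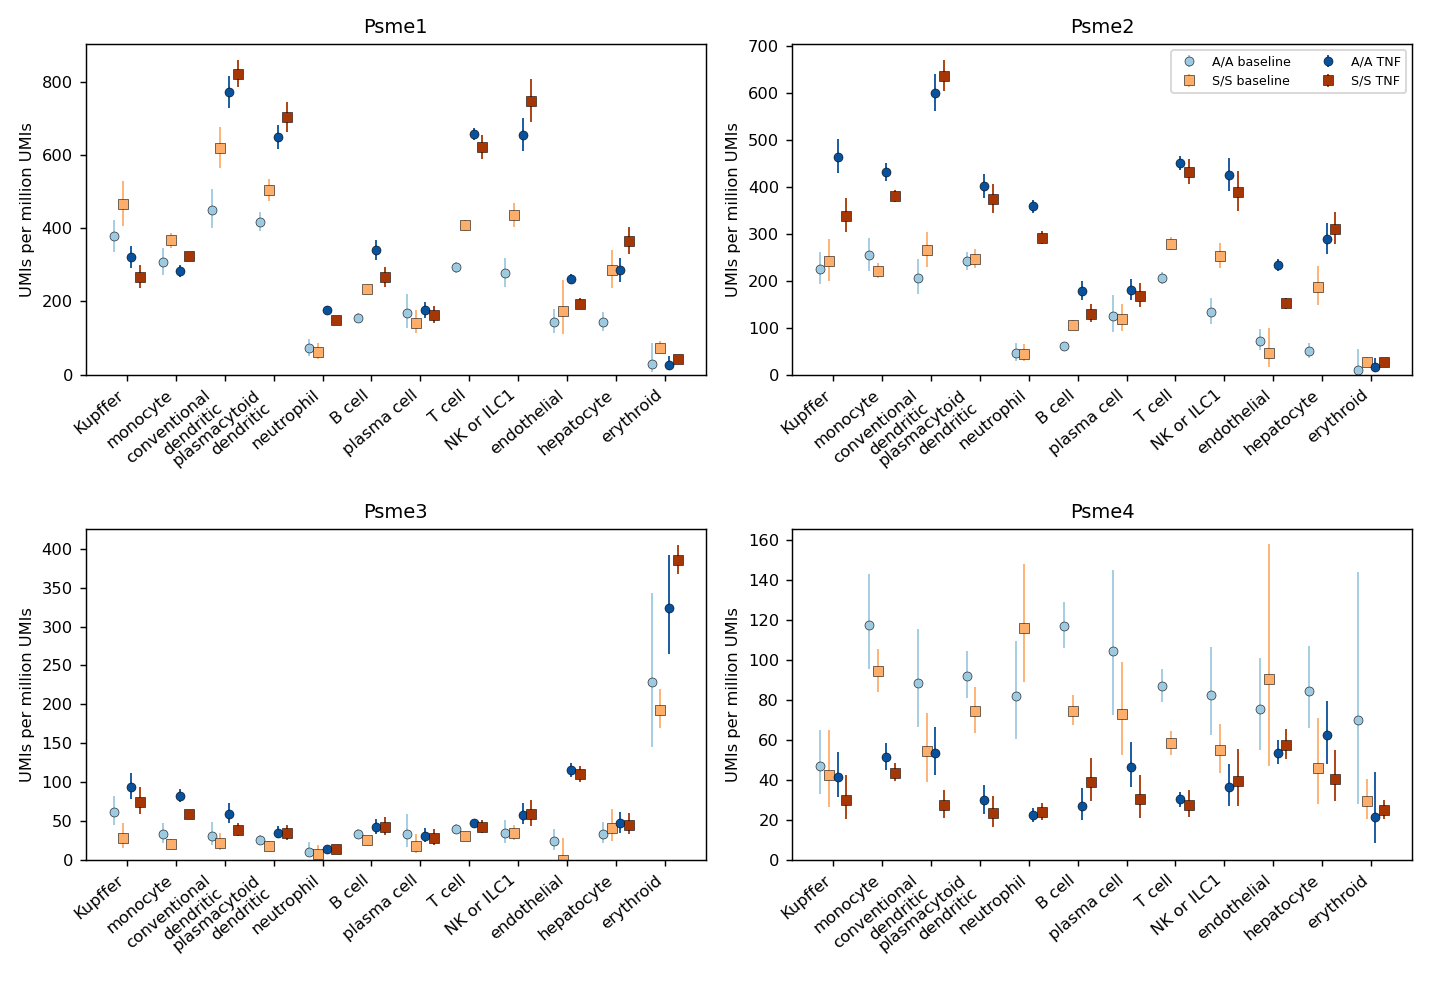
CPM (y axis) of Psme1, Psme2, Psme3 and Psme4 in 12 gated classes (x axis) of the 4 libraries, with exact binomial 95% intervals. Psme2 is at 358 and 291 in the TNF libraries of the neutrophil gate against 45.4 and 44.1 at baseline, Psme3 is highest in the erythroid gate, and Psme4 is lower after TNF in each class compared.

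Psme3, the nuclear activator, had its highest levels in the erythroid gate, which held 219 and 590 barcodes in S/S and 11 and 35 in A/A. It was at 229, 193, 324 and 386 CPM there, from 23, 238, 106 and 1658 UMIs, and made up 23.2, 7.80, 15.5 and 21.3% of the member UMIs. In T cells its share was 1.31, 0.668, 1.005 and 0.831%. The 19S ubiquitin receptor Psmd4 was the other abundant erythroid member, at 260 CPM in S/S baseline and 249 CPM in S/S TNF. Psme3 was higher after TNF in 11 of 12 compared classes in A/A and 12 of 12 in S/S. Some of these classes had few baseline UMIs of Psme3: 6 (A/A) and 4 (S/S) in neutrophil-gate barcodes. It had 14 in the A/A endothelial gate and 14 in the S/S Kupffer gate. The A/A count includes the erythroid gate, whose A/A baseline library had 99 member UMIs. In the endothelial gate of S/S baseline, 29 barcodes, Psme3 had 0 UMIs, against 110 CPM in S/S TNF. For that 0 a fixed limit of 3 UMIs (22.6 CPM) was set in place of an interval.

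The summed level in the erythroid gate was 986, 2474, 2096 and 1812 CPM; the A/A baseline library had 99 member UMIs there, too few for a comparison. The S/S ratio of TNF to baseline was -0.45 [-0.51 to -0.39], and 36 of 38 members were lower, against 84.3% of 5499 genes. Centred on the median of all genes the ratio turned to 0.28 [0.22 to 0.34], and under stricter filters (a minimum of 500 genes, a maximum of 10% mitochondrial UMIs) it was -0.068 [-0.14 to 0.00071]. Erythroid barcodes were split at 1000 genes detected, a limit chosen after seeing the data. Below it, 190 S/S baseline and 542 S/S TNF barcodes had 1216 [1144 to 1292] and 1148 [1113 to 1184] CPM. Above it, 29 and 48 barcodes had 5358 [5126 to 5597] and 4683 [4535 to 4834] CPM, and the S/S TNF library held the larger share of barcodes below the limit. In barcodes below the limit Psme3 made up 17.4% of member UMIs in S/S baseline and 36.8% in S/S TNF.

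The inducible catalytic genes Psmb8, Psmb9 and Psmb10 were set against their constitutive counterparts Psmb5, Psmb6 and Psmb7. In T cells the inducible share of catalytic UMIs was 76.9, 78.9, 77.7 and 75.0%, with no separation of TNF from baseline libraries. In monocyte-gate barcodes it was 74.3% [71.0 to 77.3], 68.6% [67.1 to 70.0], 41.3% [39.8 to 42.8] and 47.0% [45.9 to 48.1], so both TNF libraries lay below both baseline libraries. There Psmb5 was at 95.1, 174, 250 and 229 CPM and Psmb9 at 161, 161, 36.6 and 58.9 CPM. Kupffer-gate barcodes had shares of 69.6, 63.1, 63.6 and 54.3%. Hepatocyte-gate barcodes, which came from cells enriched for non-parenchymal types, had 19.6, 31.3, 37.5 and 35.0%, and erythroid barcodes of S/S had 22.2 and 12.9%. In the monocyte gate neutrophil markers summed to 187, 283, 469 and 483 CPM, against 3149, 5040, 5329 and 4500 CPM for monocyte markers. The part of other cell types in the monocyte and hepatocyte shares was not tested. The monocyte marker list joins classical markers, such as Ly6c2 and Ccr2, with patrolling ones, such as Treml4 and Ace. The gate held 61, 223, 228 and 452 barcodes. The part of the mix of monocyte types in the monocyte shares and ratios was not tested. In monocytes the lower inducible share came with higher constitutive and lower Psmb8 and Psmb9 levels, while Psmb10 was at 146, 153, 165 and 163 CPM.

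**Figure D5:**
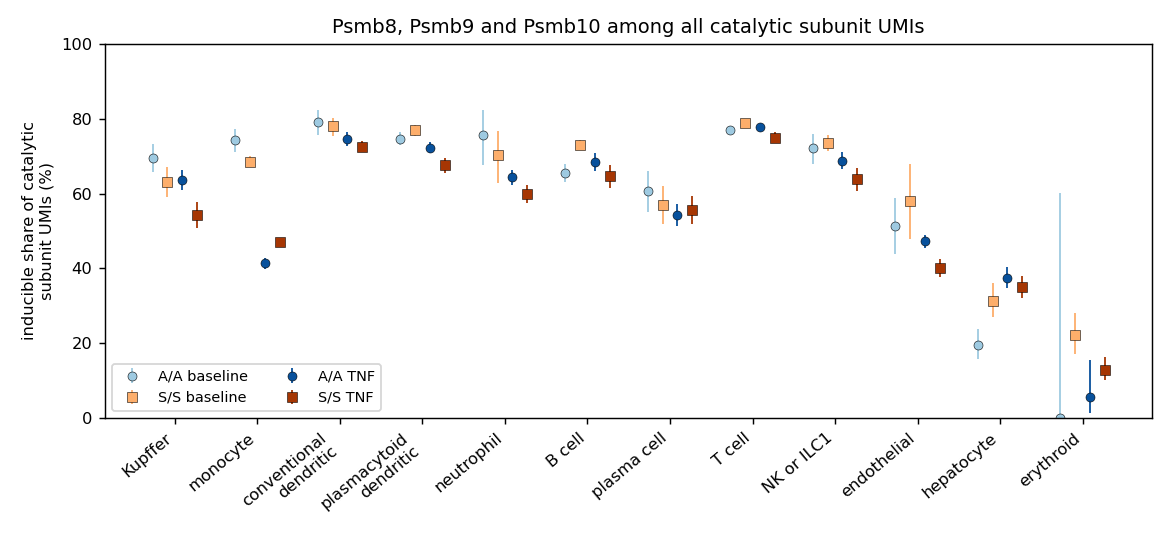
Share of catalytic subunit UMIs that belong to Psmb8, Psmb9 and Psmb10 (y axis, percent) in 12 gated classes (x axis) of the 4 libraries, with exact binomial 95% intervals. The monocyte share is 74.3 and 68.6% at baseline and 41.3 and 47.0% after TNF, and the T cell share stays between 75.0 and 78.9%.

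Genes around the proteasome were read in Kupffer-gate barcodes from lists of companion genes. Of the transcription factors and their activators, 3 of 4 were higher after TNF in each genotype, where 57% (A/A) and 57.3% (S/S) of all genes compared were higher. Nfe2l1, which drives proteasome genes when proteasome activity is short, had TNF log2 ratios of 1.73 (A/A) and 1.54 (S/S), the oxidative stress factor Nfe2l2 0.99 and 1.26, and Ddi2, the protease that activates Nfe2l1, 0.35 and 1.32. Of the ubiquitin and unfolding genes, 8 of 12 were higher in A/A and 7 of 12 in S/S. The ubiquitin-binding autophagy receptor Sqstm1 was at 2.16 and 2.04, with 69 and 559 UMIs for A/A and 47 and 406 for S/S, and Nploc4, a cofactor of the unfoldase Vcp, was at 1.30 and 2.98 [1.25 to 4.79], the S/S baseline value resting on 2 UMIs. Of the proteasome-bound enzymes and regulators, 4 of 6 were higher in each genotype, with the ubiquitin ligase Ube3c at 1.09 and 1.89 [0.33 to 3.64], the S/S baseline value resting on 3 UMIs, and the deubiquitinase Uchl5 at -1.498 and -0.88. Of 5 assembly chaperones found, 1 was higher in each genotype, Psmg3 in A/A and Psmg1 in S/S: Psmg3 was at 0.48 and -0.37, Psmg1 at -0.035 and 0.17, Psmg2 at -0.05 and -1.38, Psmg4 at -0.10 and -1.11, and Pomp, which matures the 20S core, at -0.24 and -0.63. Of the 19S subunits whose names fall outside the rule, Adrm1 was at 1.16 and -0.63 and Sem1 at -0.24 and -0.40. The inducible catalytic genes were at -0.17 and -1.18 for Psmb8, -0.62 and -0.89 for Psmb9, and 0.77 and -0.30 for Psmb10. The median over all genes compared was 0.17 in A/A and 0.21 in S/S.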

How the data were processed

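Single-cell RNA libraries (10x 3' v3.1) of liver cells were analysed, 1 per group. Per the file headers and the submitters' processing notes, the deposited counts, UMIs for each gene in each barcode, were made by the authors using Cell Ranger (6.1.2 for the TNF libraries, 7.1.0 for the baseline libraries) against mm39. Samples were assigned by their labels; the names of the TNF matrices themselves give no treatment. Whether introns were counted is not given in the sources used here. Each matrix had 55414 genes, and the fewest genes in a barcode of the TNF matrices was 250. The members, gene lists and marker lists were chosen with earlier results of these data known.

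Barcodes were dropped under 300 genes or over 20% mitochondrial UMIs. No doublet caller was used; mixed barcodes were set aside by the gate. A barcode was placed by the marker list of which it showed the greatest share, when it had at least 3 markers and 1 in 3 of the list (5 for hepatocytes, 6 for neutrophils), and no other class passed its own gate with over 0.5 of that share. This gate rule was set after the data were seen: 3 versions were tried, with member ratios in view at each, because the earlier ones left 325, 688, 1537 and 1746 (first) and 270, 457, 1252 and 1352 (second) barcodes mixed, against 250, 404, 981 and 956. Both earlier rules are among the alternatives. The ribosomal protein (83 genes) and oxidative phosphorylation (118 genes) lists, the motifs and the erythroid split were also chosen after the data were seen.

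UMIs were summed per library and class and scaled to CPM. Log2 ratios used a pseudocount of 1 CPM and a minimum of 20 UMIs per gene over the pair. Intervals are exact binomial (Clopper-Pearson) at 95%, for counting error only. The interval of a difference between TNF ratios is approximate and symmetric. Its half-width is the square root of the summed squares of the half-widths of the ratio intervals. No test was made, since each group had 1 library. Named members were the catalytic subunits, activators, tissue-restricted and inducible genes, and by class and comparison the highest and lowest ratios (3 each way in Kupffer-gate barcodes, 1 elsewhere) among members with at least 100 UMIs in the pair; others were named for their role. Of each companion list, up to 2 genes with the largest absolute ratio per genotype were named under the rule; Pomp, Psmg1, Psmg3, Adrm1 and Sem1 complete their lists. Intron lengths came from a GRCm38 annotation by gene identifier, and 94.0% of genes had one. The limit of 20 kb of intron was applied to the total alone, which also left out genes without a length. All members stayed in the sum, including 13 with over 20 kb of intron. The ratio and its interval were checked on simulated counts. Computation used pandas 2.3.3, scipy 1.17.1 and numpy 2.4.6 under Python 3.11.15, and matplotlib 3.10.9 for plots.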

Additional observations from a re-analysis of the deposited data

Results flagged for a closer look

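In Kupffer-gate barcodes the summed members had TNF log2 ratios of opposite sign in the genotypes, 0.21 (A/A) and -0.30 (S/S), with counting intervals on either side of 0, a difference of -0.51. Among single members the same held for the alpha subunit Psma3, at 0.36 and -0.66 (difference -1.02), and the ATPase Psmc4, at 0.62 and -0.59 (difference -1.21). The difference of the summed ratios was also negative in the other gated classes except the plasma cell gate, and was -0.43 over all kept barcodes. A lower S/S ratio was thus not particular to Kupffer-gate barcodes. These differences were not tested, since each group is 1 library.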

How the results depend on the processing

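No paired analysis was possible because each group is 1 library, and no replicate could be left out. Requiring 1 more marker, at least 500 genes with at most 10% mitochondrial UMIs, leaving out the barcode with the most member UMIs, at least 250 genes, and the second gate rule moved none of the 14 main results beyond their intervals (counts by over 1.5 times). Without Rn18s-rs5 and mitochondrial genes in the total, the T cell TNF ratio was 0.57 in A/A and 0.28 in S/S, and the Kupffer one -0.17 in S/S. S/S against A/A was 0.20 (Kupffer) and 0.37 (T cell) at baseline and 0.076 (T cell) after TNF, and the S/S minus A/A TNF difference was -0.32 (Kupffer) and -0.29 (T cell). Centred on the median of all genes, the TNF ratios were 0.036 (A/A) and -0.52 (S/S) in Kupffer and 0.64 and 0.40 in T cell-gate barcodes. S/S against A/A was then 0.42 (T cell, baseline) and -0.036 (Kupffer, after TNF), 8 of 12 classes were higher in S/S after TNF, and the T cell difference was -0.24. The S/S TNF sum turned to -0.077 in hepatocyte and 0.28 in erythroid-gate barcodes, sums whose alternatives were added after seeing the data. With only genes of under 20 kb of intron in the total, the TNF ratios were 0.076 and -0.082 (Kupffer) and 0.13 and 0.069 (T cell). S/S against A/A was 0.0087 (Kupffer) and 0.14 (T cell) at baseline and 0.071 (T cell) after TNF, the differences were -0.16 and -0.065, and Psme1 turned to -0.10 in the Kupffer baseline comparison. Thinned to 1000 UMIs, which left out 23, 51, 43 and 17 Kupffer barcodes, the T cell TNF ratios were 0.50 and 0.0045 and the Kupffer one -0.19 in S/S. After TNF, S/S against A/A turned to 0.093 for the Kupffer sum, 0.17 for Psmd10 and 0.22 for Psme1, and was 0.061 in T cells; the differences were -0.36 and -0.50. Fewer classes then held enough UMIs: 5 of 5 were higher with TNF in A/A, 4 of 5 in S/S, and 5 of 5 in S/S at baseline. Without Psme1 and Psme2 the T cell ratios were 0.46 (TNF, A/A), 0.063 (TNF, S/S) and 0.17 (S/S against A/A after TNF). Under the first gate rule, added after seeing the data like the second and the 250-gene minimum, the Kupffer S/S TNF ratio was -0.20, S/S against A/A after TNF turned to 0.011, the Kupffer difference was -0.41, and 5 of 12 classes were higher in S/S after TNF. The causes of these shifts were not tested. With 1 library per group, no interval here covers variation between mice.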
